A study of Mus musculus with 12 samples.

Results

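Oleic acid (OA) infusion was compared with its vehicle in the livers of mice with diet-induced fatty liver disease. The comparison uses 6 of the 12 libraries of the series: those of the 3 mice whose minipump released OA and those of the 3 mice whose minipump released polyethylene glycol (PEG) alone. All 6 were C57BL/6J mice (C57BL/6 in the strain label) kept for 24 weeks on a NASH diet, named after the nonalcoholic steatohepatitis it induces. Fat, saturated and trans, supplied 40% of its calories, and it held added fructose and cholesterol. The pumps lay under the skin, and OA was dissolved in PEG and infused at 5 mg/kg/day. The other 6 libraries come from 3 mice on the same diet infused with nitro-oleic acid (OA-NO2, oleic acid carrying a nitro group) in PEG at the same rate, and from 3 mice on standard chow. Each library is the whole liver RNA of 1 mouse, told apart by ear tag. The sources used here give no sex, age or length of infusion, and they mention no pump for the chow mice.

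Oleic acid is the common monounsaturated fatty acid of olive oil and of liver triglyceride. Hepatocytes take it up, bind it to coenzyme A and either store it in lipid droplets, export it in very low density lipoprotein or oxidise it in mitochondria and peroxisomes. Stearoyl-CoA desaturase also makes it inside the cell from stearic acid. Beside a nitrated fatty acid, the plain one serves as the control without the nitro group, and its comparison with PEG asks how that control itself differs from vehicle.

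No single gene passed the adjusted test between the livers of OA-infused and vehicle-infused mice. Of 29 acute phase genes, 13 were higher with OA at an unadjusted p under 0.05, a count that moved between 3 and 14 on leaving out 1 library. Of 14469 genes tested, 0 were called by edgeR's quasi-likelihood test at an adjusted p under 0.05 (0%), and the lowest adjusted p was 0.975. DESeq2 also called 0 of the 14455 genes it gave an adjusted p. At an unadjusted p under 0.05 edgeR counted 564 genes (3.9%), of which 342 were higher with OA (2.36%) and 222 lower (1.53%), and DESeq2 counted 532. The values of both groups did not overlap in 1898 genes (13.1%), 1130 higher with OA (7.81%) and 768 lower (5.31%). None of the differences between OA and vehicle given below passed the adjusted test, and each is a measured value with its error.

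The precision of the comparison limits what it could have missed. The median standard error of a log2 fold change was 0.23, and the biological coefficient of variation was 0.226. For 10680 genes (73.8%) the 95% interval of the difference lay within 2-fold in either direction, and for 5375 genes (37.1%) it lay within 1.5-fold. The median log2 fold change over all genes was 0.0038.

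**Figure D1:**
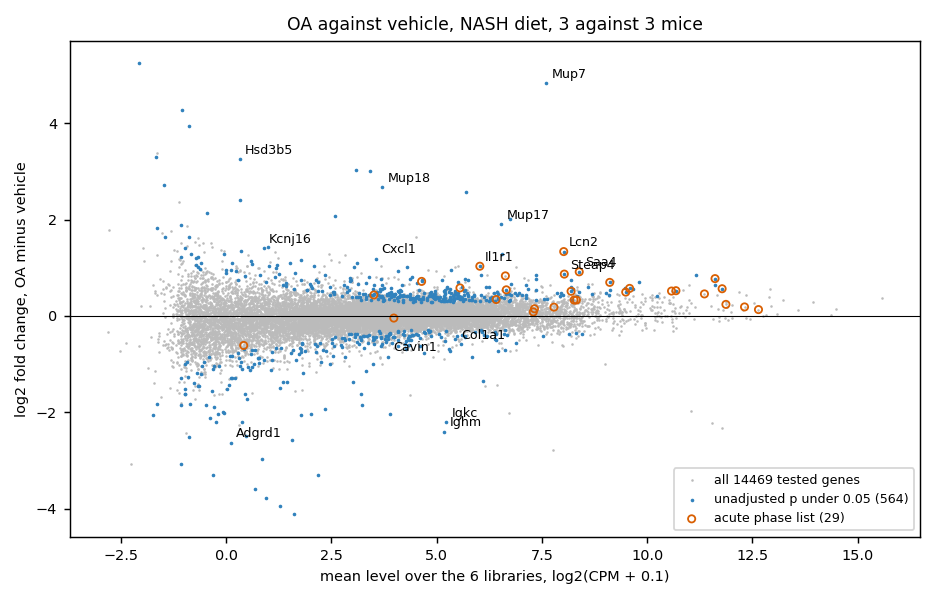
Log2 fold change of OA over vehicle (y axis) against the mean level of each gene over the 6 libraries (x axis, log2 of CPM plus a small constant, CPM being counts scaled to a common library total). Each grey point is 1 of 14469 genes, blue points have an unadjusted p under 0.05 and orange rings are the 29 acute phase genes, of which 27 lie above 0.

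One OA library stood apart from the rest of its group. On the first principal component (46.4% of variance) the vehicle libraries lay at 22.46, 43.64 and 54.36, and OA replicates 1 and 2 at 49.62 and 39.99. OA replicate 3 lay at -13.48, nearer to the OA-NO2 libraries (-26.77 to 10.28). The chow libraries lay beyond it in the same direction, at -71.87 to -44.72. Among 12677 genes that averaged 1 CPM or more, OA replicate 3 lay more than 1 log2 unit outside the range of the other 5 libraries in 143, of which 107 were below and 36 above. Each of the other 5 did so in 10 to 35 genes. Total counts of the 6 libraries ran from 15972613 to 20613777, and albumin took 4.06% to 7.07% of them. Values without OA replicate 3 are given beside many of the list results below.

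The chemokine Cxcl1, which attracts neutrophils, and the interleukin-1 receptor Il1r1 had among the lowest p values of the genes that were higher with OA. Inflammatory signals from cytokines reach the hepatocyte through receptors such as Il1r1 and act through the transcription factors NF-kB, STAT3 and C/EBP, which turn on the plasma proteins of the acute phase. Cxcl1 is also a textbook target of NF-kB. The stretches of DNA just upstream of Cxcl1 and of the acute phase genes Steap4 and Saa4 are shown because the levels of these genes are described next and because they carry the letters searched for. They are RefSeq sequences of GRCm38.p6, ending before the annotated start, with matches in capitals. The letters searched, on either strand, were GGG and TTTCC with any 2 bases between them for NF-kB, TTCNNNGAA for STAT3 and TTGCNNAA for C/EBP; they did not overlap in these 3 stretches.
Cxcl1, chr5:90890995-90891240, plus strand, with a pair of NF-kB matches: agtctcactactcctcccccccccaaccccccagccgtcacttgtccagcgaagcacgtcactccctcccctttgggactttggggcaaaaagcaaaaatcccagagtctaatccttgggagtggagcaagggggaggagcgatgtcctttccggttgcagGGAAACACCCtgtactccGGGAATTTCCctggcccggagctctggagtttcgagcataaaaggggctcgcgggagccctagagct
Steap4, chr5:7960222-7960456, plus strand, with 1 match each to NF-kB, STAT3 and C/EBP in that order: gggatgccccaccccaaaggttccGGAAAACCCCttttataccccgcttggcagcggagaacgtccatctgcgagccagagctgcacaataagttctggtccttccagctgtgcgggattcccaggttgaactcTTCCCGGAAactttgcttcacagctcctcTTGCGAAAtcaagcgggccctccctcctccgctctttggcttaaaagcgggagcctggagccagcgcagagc
Saa4, chr7:46732604-46732853, minus strand, with a pair of C/EBP matches: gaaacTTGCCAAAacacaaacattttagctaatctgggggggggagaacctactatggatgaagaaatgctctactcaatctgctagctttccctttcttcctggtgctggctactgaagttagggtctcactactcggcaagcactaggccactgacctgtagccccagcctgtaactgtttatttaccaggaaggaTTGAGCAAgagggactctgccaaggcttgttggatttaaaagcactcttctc

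In the 250 bases upstream, the C/EBP letters stood in 12 of the 24 acute phase genes with a RefSeq promoter (50%) and in 7.97% of 10517 promoters of tested genes. The STAT3 letters stood in 8 of 24 (33.3%) against 6.09%, and the NF-kB letters in 2 of 24 (8.33%) against 1.44%. A match of letters describes the sequence only and does not show that a factor binds there. The counts take close copies, such as Saa1 and Saa2 or Hamp and Hamp2, as separate genes. They also include members without a clear rise, such as Hpx and Hamp, and so say nothing about OA. For Lcn2, Hamp2 and Socs3 the RefSeq start used lay 500 to 681 bases from the GENCODE start.

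Cxcl1 (ENSMUSG00000029380) stood at 7.08, 9.11 and 5.11 CPM in vehicle replicates 1 to 3 and at 15.1, 13.6 and 19.7 CPM in OA replicates 1 to 3. All 3 OA libraries lay above all 3 vehicle libraries. The log2 fold change was 1.19 ± 0.28 (SE, 95% interval 0.58 to 1.79, edgeR unadjusted p = 0.000992, adjusted p = 0.975). With OA-NO2 the level was 10.1, 6.99 and 8.82 CPM, and OA-NO2 differed from OA by -0.90 ± 0.28 on the log2 scale (adjusted p = 0.327). Il1r1 (ENSMUSG00000026072) stood at 31.4, 49.4 and 47.6 CPM with vehicle and at 72.8, 109.9 and 79.4 CPM with OA, again without overlap, a log2 fold change of 1.03 ± 0.26 (adjusted p = 0.975). Unlike Cxcl1, Il1r1 was at 71.5 to 87.6 CPM with OA-NO2, within 0.72 log2 units below and 0.41 above OA by the 95% interval.

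The acute phase list, proteins that the liver secretes or uses during inflammation, had many members at a low p. It also holds signalling genes such as Il1r1 and Socs3. Of its 29 tested genes, 13 were higher with OA at an unadjusted p under 0.05 (2.36% of all genes were) and 0 were lower. In 10 the groups did not overlap, all higher with OA (7.81% of all genes), and 27 of 29 log2 fold changes were above 0. The median was 0.51, against 0.0038 over all genes. None of the 29 was called after adjustment over all genes.

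Steap4, a metalloreductase of the plasma membrane, stood at 138.2, 182.6 and 235.3 CPM with vehicle and at 444.3, 336.6 and 233.6 CPM with OA. OA replicates 1 and 2 lay above every vehicle library, and OA replicate 3 lay level with vehicle replicate 3. Saa4, the constitutive serum amyloid A, was at 257.9, 261.8 and 176.2 CPM with vehicle and at 375.1, 479.5 and 457.2 CPM with OA, with no overlap. Their log2 fold changes were 0.87 ± 0.23 for Steap4 and 0.91 ± 0.28 for Saa4.

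The fibrinogen chains, which form the clot, lay in the same direction. Fga stood at 1959, 2561 and 2415 CPM with vehicle and at 2865, 4865 and 4124 CPM with OA, a log2 fold change of 0.77 ± 0.26, and Fgb at 0.56 ± 0.24 and Fgg at 0.46 ± 0.24 overlapped between groups. Other members without overlap were the protease inhibitor Serpina3n (0.70 ± 0.24), the orosomucoid Orm3 (0.72 ± 0.26), the inter-alpha-trypsin inhibitor chains Itih3 (0.57 ± 0.23) and Itih4 (0.52 ± 0.26), the lipopolysaccharide-binding protein Lbp (0.54 ± 0.22) and the copper protein ceruloplasmin, Cp (0.52 ± 0.22). Reads of Orm3, Serpina3n and the serum amyloid genes can be shared with close copies of their families, which makes single members uncertain.

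Not every acute phase gene was higher. Saa2, the classical inducible serum amyloid, stood at 76.9, 232.5 and 148.8 CPM with vehicle and at 188.5, 230.7 and 65.5 CPM with OA (0.08 ± 0.51). Saa1 at 0.33 ± 0.54, the haem-binding Hpx at 0.13 ± 0.22, the feedback inhibitor Socs3 at -0.05 ± 0.60 and the iron hormone Hamp at 0.18 ± 0.53 had intervals on both sides of 0. Lcn2, the iron-trapping lipocalin, showed how unequal the OA mice were: 83.5, 204.3 and 153.8 CPM with vehicle, and 608.5, 434.4 and 71.1 CPM with OA. OA replicates 1 and 2 held the highest Lcn2 of the 6 libraries and OA replicate 3 the lowest.

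Single libraries moved the acute phase count. It was 11 of 29 without OA replicate 3, with a median of 0.53, but 3 without OA replicate 2 and 6 without vehicle replicate 3, with medians of 0.47 and 0.40. With library size alone in place of trimmed-mean scaling it was 7, with a median of 0.42. The list median by library, as log2 difference from the vehicle mean, was -0.19, 0.24 and -0.04 with vehicle. With OA it was 0.44, 0.70 and 0.37, so these groups did not overlap. It was 0.09, 0.26 and 0.17 with OA-NO2 and 0.01, -0.01 and 0.29 with chow. The summed level of the list was 25400, 32000 and 27100 CPM with vehicle and 35600, 39900 and 35100 CPM with OA. With OA-NO2 the sum was 29500, 34200 and 32400 CPM. Chow livers, without the NASH diet, had sums of 40600, 39600 and 48100 CPM. Neutrophil markers were uneven too: the summed level of the 6 tested of 14 markers was 89.5 to 220 CPM with vehicle and 631, 452 and 79.4 CPM with OA, nearly all of it Lcn2, which sits in both lists. All 6 tested markers had a log2 fold change above 0, among them S100a9 at 0.81 and Csf3r at 0.36. The median of the 6 was 0.51, and 0.35 to 0.76 on leaving out 1 library. By library the median was -0.49, 0.43 and 0.06 with vehicle and 0.80, 0.48 and -0.21 with OA, so the groups overlapped. Of the defining neutrophil genes, Ly6g had 2 counts in the 12 libraries and Mpo 14, too few to be tested. The part of neutrophils in the acute phase values was not tested.

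**Figure D2:**
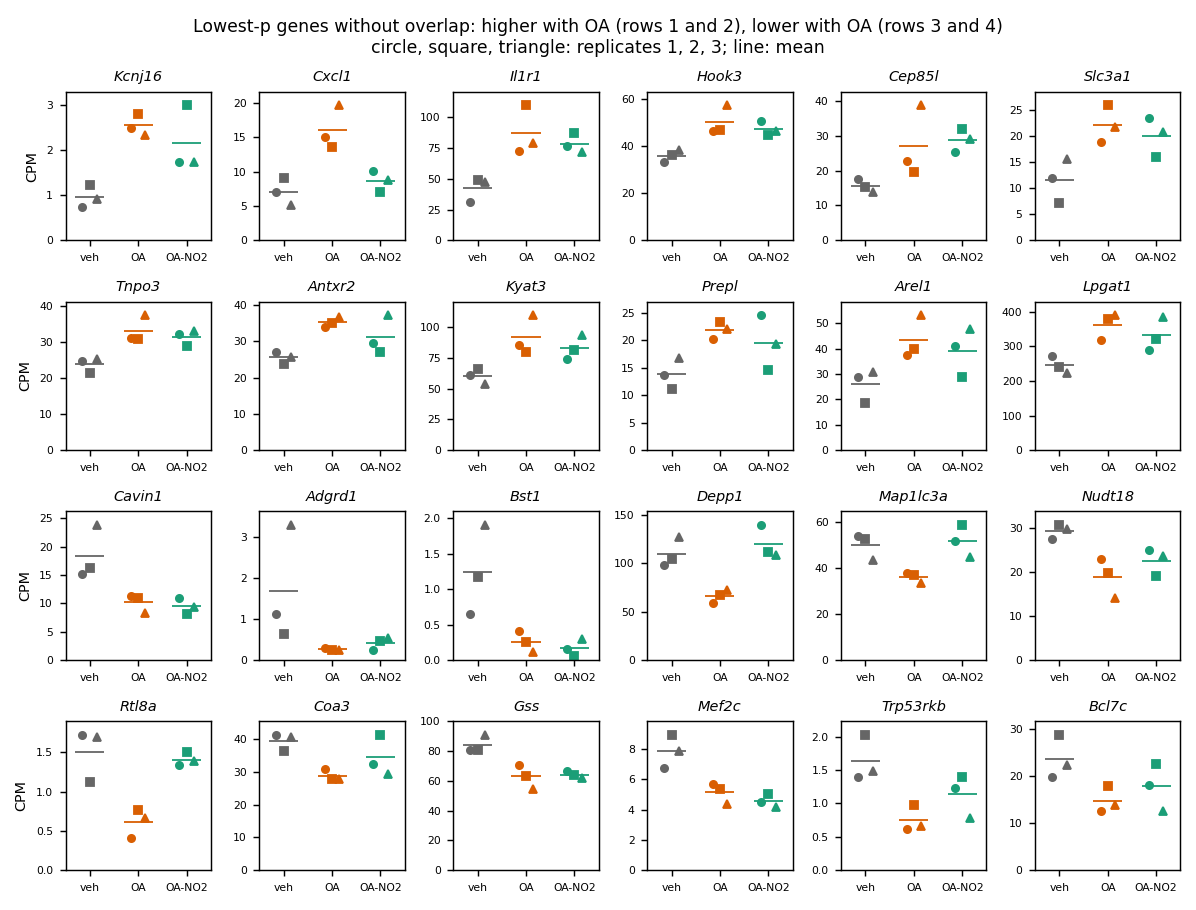
Level in CPM (y axis, from 0) of the 12 genes with the lowest p that were higher and the 12 that were lower with OA, by group (x axis: vehicle, OA, OA-NO2). Each symbol is 1 mouse and each line a group mean; vehicle and OA never overlap because that was a condition for naming the gene.

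The other genes with the lowest p that were higher with OA had varied roles. Kcnj16, a potassium channel subunit, stood at 0.75, 1.23 and 0.93 CPM with vehicle and at 2.50, 2.82 and 2.35 CPM with OA (log2 fold change 1.40 ± 0.33), on 61 counts in the vehicle group and 143 in the OA group. Slc3a1, the heavy chain of a cystine transporter, stood at 11.9, 7.25 and 15.6 CPM against 19.0, 26.0 and 21.9 CPM (0.94 ± 0.26). Lpgat1, an acyltransferase of phospholipid synthesis, was the most abundant of the 12, at 272.3, 240.2 and 222.7 CPM against 317.7, 378.5 and 389.9 CPM (0.56 ± 0.17). The remaining 7 were Hook3, Cep85l, Tnpo3, Antxr2, Kyat3, Prepl and Arel1, with log2 fold changes from 0.46 (Antxr2, an anthrax toxin receptor that binds matrix) to 0.80 (Cep85l, a centrosomal protein). Kyat3, a kynurenine aminotransferase, stood at 0.60 ± 0.17.

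Of the genes that were lower with OA, Cavin1 had the lowest p. It encodes a coat protein of caveolae, the membrane pits of adipocytes, endothelium and fibroblasts, and stood at 15.2, 16.3 and 23.8 CPM with vehicle and at 11.4, 10.9 and 8.37 CPM with OA (log2 fold change -0.85 ± 0.20, unadjusted p = 0.000859). The OA-NO2 libraries, at 8.18 to 10.9 CPM, lay below all vehicle libraries too. Depp1, a fasting-responsive gene linked to autophagy, stood at 97.9, 104.1 and 126.9 CPM against 58.9, 67.1 and 72.8 CPM (-0.73 ± 0.21). Its OA-NO2 libraries were at 108.5 to 139.7 CPM, as high as vehicle, and OA-NO2 differed from OA by 0.86 ± 0.21 (adjusted p = 0.313 by edgeR and 0.0375 by DESeq2). Map1lc3a, an autophagosome protein of the LC3 family, had the same order, at 43.3 to 53.8 CPM with vehicle, 33.4 to 37.7 with OA and 44.8 to 58.6 with OA-NO2.

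Gss, glutathione synthetase, stood at 80.9, 80.7 and 91.0 CPM with vehicle and at 70.6, 63.5 and 54.7 CPM with OA (-0.42 ± 0.13). Coa3, an assembly factor of cytochrome c oxidase, was at -0.45 ± 0.14, the nucleotide hydrolase Nudt18 at -0.63 ± 0.19 and the transcription factor Mef2c at -0.61 ± 0.19. The largest log2 differences among the 12 were those of the adhesion receptor Adgrd1 (-2.63 ± 0.67) and the ectoenzyme Bst1 (-2.20 ± 0.66), each on 15 counts over the 3 OA libraries. In Adgrd1 vehicle replicate 3 was high, at 3.30 CPM beside 1.12 and 0.64, while the OA libraries were at 0.31, 0.26 and 0.24. Rtl8a, Trp53rkb and Bcl7c made up the rest, at -1.30, -1.11 and -0.68.

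Genes that handle fatty acids, the class nearest to what was infused, gave 0 members at an unadjusted p under 0.05 by edgeR in the lists of fatty acid synthesis (20 tested), elongases and desaturases (17), lipid droplets (19), uptake and binding (22) and oxidation with PPAR-alpha targets (35). Their median log2 fold changes were -0.03, -0.01, 0.01, 0.01 and 0.19. The 95% interval lay within 2-fold for 15 of the 20 synthesis genes, 17 of the 19 droplet genes and 25 of the 35 oxidation genes. DESeq2 put 2 oxidation genes at an unadjusted p under 0.05, both higher, and 0 in the other 4 lists. The oxidation median became -0.041 without OA replicate 3. The synthesis median became 0.18 without vehicle replicate 3, and without vehicle replicate 1 the medians were 0.061 for elongases, -0.024 for droplets and -0.046 for uptake, so none of the 5 lists kept its direction.

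Scd1, the stearoyl-CoA desaturase that makes oleic acid, was among the most abundant transcripts of both groups, and its log2 fold change was 0.28 ± 0.21 (95% interval -0.17 to 0.74). Its lowest and highest libraries were at 12090 and 16700 CPM with vehicle and 13960 and 19250 CPM with OA, so the groups overlapped. Cd36, a fatty acid transporter, stood at 405.9, 336.4 and 348.6 CPM with vehicle and at 481.5, 477.0 and 465.0 CPM with OA. The OA libraries lay above all vehicle libraries, but the interval, which rests on the spread within all 4 groups, ran from -0.37 to 1.14 (log2 fold change 0.38 ± 0.35). Plin2, the coat protein of lipid droplets, stood at 872.6, 864.6 and 1043 CPM against 1075, 872.9 and 862.3 CPM, a difference of 0.02 ± 0.17 whose interval ran from -0.35 to 0.38 and whose sign turned with library size alone. Cidec, which fuses droplets, was at -0.04 ± 0.21, and the regulators Srebf1 and Pparg were at -0.30 ± 0.27 and -0.22 ± 0.23.

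Fasn, fatty acid synthase, varied more within groups than between them: 103.5, 82.7 and 234.9 CPM with vehicle, and 160.5, 153.4 and 68.04 CPM with OA. Cpt1a, the gate of mitochondrial oxidation, stood at 0.23 ± 0.18. Cyp4a14, a fatty acid hydroxylase controlled by PPAR-alpha, was at 1223, 1001 and 3072 CPM with OA, where OA replicate 3 alone lay above the vehicle libraries (445.8 to 2171 CPM). Fgf21, a hormone of the fasting liver, was at 10.3, 19.2 and 18.5 CPM with vehicle and at 13.7, 7.89 and 4.76 CPM with OA (-0.86 ± 0.46).

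**Figure D3:**
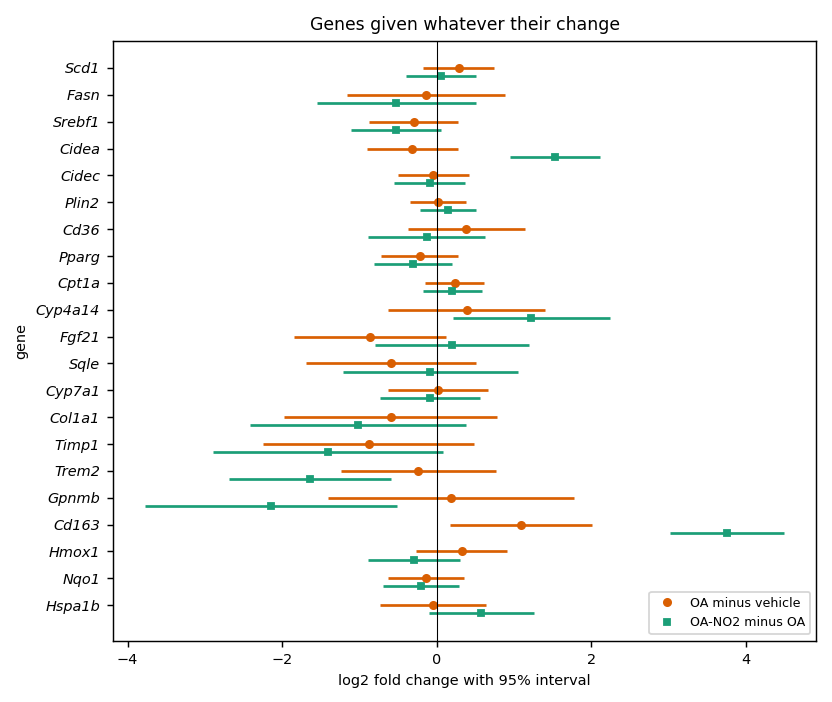
Log2 fold change (x axis) with its 95% interval for genes given whatever their change (y axis), with OA over vehicle in orange circles and OA-NO2 over OA in green squares. The orange intervals include 0 for every gene plotted except Cd163; the green interval of Cd163 runs from 3.02 to 4.50.

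In cholesterol and bile acid metabolism 0 genes of either list reached an unadjusted p under 0.05 by edgeR or DESeq2. The 22 bile acid genes had a median of 0.27, and of 0.013 without OA replicate 3. The 27 genes of cholesterol synthesis and uptake had a median of -0.14, with 6 above 0, and without vehicle replicate 3 a median of 0.018, with 15 above 0. Sqle, squalene epoxidase, stood at 3.54, 5.33 and 7.86 CPM with vehicle and 3.62, 4.05 and 3.43 CPM with OA (-0.59 ± 0.51). Cyp7a1, which catalyses the slowest step from cholesterol to bile acids, stood at 206.5, 113.5 and 88.7 CPM against 102.3, 142.2 and 168.9 CPM, a difference of 0.02 ± 0.30 whose sign turned with library size alone and with a stricter filter. Abca1, the cholesterol exporter, was at 210.1 to 235.6 CPM with vehicle and 265.2 to 289.7 CPM with OA, without overlap (0.31 ± 0.16). Apob, the structural protein of secreted lipoprotein, was likewise without overlap at 4917 to 7438 CPM against 8221 to 10490 CPM (0.55 ± 0.28).

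Among 47 genes of drug metabolism, 3 were higher at an unadjusted p under 0.05 (2.36% of all genes were) and 0 lower. The list median was 0.23, with 37 above 0. Without OA replicate 3 the median was -0.071, with 20 above 0, 1 higher and 2 lower at that threshold. The 3 were Ugt1a1, which conjugates bilirubin (0.76 ± 0.23), the xenobiotic sensor Ahr (0.38 ± 0.12) and Cyp3a13 (0.61 ± 0.23). Ahr stood at 38.3, 40.8 and 39.4 CPM with vehicle and at 57.3, 46.9 and 50.4 CPM with OA. Of 34 nuclear genes of the respiratory chain, 10 did not overlap and were lower with OA (5.31% of all genes), but the differences were small, with a median of -0.15 and 1 gene at an unadjusted p under 0.05, the ATP synthase subunit Atp5d (-0.42 ± 0.17). Without vehicle replicate 1 the median was -0.083 and that count 0. All 34 intervals lay within 2-fold.

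Mitochondrially encoded genes took 7.97%, 7.58% and 7.90% of counts with OA and 6.13%, 6.55% and 13.8% with vehicle. The mean difference of -1.02 percentage points had an exact two-sided permutation p of 1, where 3 against 3 libraries cannot give a p below 0.10. Vehicle replicate 3 set the sign: without it the difference was 1.48. In that library mt-Co3, a subunit of cytochrome c oxidase, stood at 17600 CPM, beside 18.4 and 17.1 CPM in the other vehicle libraries. It stood at 2537, 19.7 and 969.5 CPM in the OA libraries. Over the 13 mitochondrially encoded genes the median log2 fold change was 0.018 and the lower quartile -2, with 6 intervals within 2-fold. The treatment of multiply mapped reads is not given, and the part of read counting in these values was not tested.

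Antioxidant and stress genes gave few low p values. Of 38 antioxidant and NRF2 genes, 0 were higher and 1 was lower at an unadjusted p under 0.05, the carbonyl reductase Cbr1 (-0.30 ± 0.13). The count of lower genes was 2 without OA replicate 1 and 0 on leaving out any other single library. Without vehicle replicate 2, 1 gene was higher. Hmox1, haem oxygenase, stood at 24.9, 31.1 and 31.5 CPM with vehicle and at 38.0, 41.1 and 30.4 CPM with OA (0.32 ± 0.28), and Nqo1 was at -0.13 ± 0.23. The heat shock gene Hspa1b was at -0.05 ± 0.32. In the unfolded protein response list of 30 genes, 2 were higher at an unadjusted p under 0.05 (2.36% of all genes were). Both are parts of the endoplasmic reticulum machinery: the co-chaperone Dnajc3 (0.35 ± 0.13) and Sel1l of the degradation complex (0.33 ± 0.13). Without OA replicate 3, or with library size alone, that count was 0.

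Matrix, recruited macrophage and duct genes were lowest in OA replicate 3, by list median over the 6 libraries (-1.11, -1.28 and -1.06 from the vehicle mean). The tissue was sequenced in bulk, so fewer cells of a type and less RNA per cell cannot be told apart. Of 35 collagen and matrix genes 4 were lower and 1 higher at an unadjusted p under 0.05 (1.53% and 2.36% of all genes), with a median of -0.37. Without OA replicate 3 these counts were 0 and 0, with a median of -0.11. Without vehicle replicate 3, the highest in collagens, they were also 0 and 0 with a median of -0.11, and without OA replicate 1 they were 6 and 1. Col1a1, the main scar collagen, stood at 29.5, 47.5 and 80.7 CPM with vehicle and at 57.95, 37.7 and 8.43 CPM with OA (-0.60 ± 0.64). Timp1, an inhibitor of matrix proteases, was at 3.12, 8.47 and 6.55 CPM against 5.50, 3.64 and 0.60 CPM.

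Recruited macrophages gave the same order of OA libraries. Trem2, a lipid receptor of macrophages that gather around fat-laden hepatocytes, was at 12.0, 24.1 and 17.0 CPM with vehicle and at 21.3, 18.6 and 5.12 CPM with OA. Gpnmb, a glycoprotein of the same cells, was at 32.5, 69.5 and 45.6 CPM against 98.3, 58.2 and 11.7 CPM. In both genes OA replicates 1 and 2 lay within or above the vehicle range and OA replicate 3 below it. The median of the 22 recruited macrophage genes was -0.13 in the fit of all libraries and 0.14 without OA replicate 3, and 0 of 22 had an unadjusted p under 0.05 in either.

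Kupffer cell genes, of the liver's resident macrophages, had 1 of 17 higher at an unadjusted p under 0.05 (2.36% of all genes were), with a median of 0.18. Without OA replicate 3 it was 2 of 17 with a median of 0.39, and without OA replicate 1 it was 0 of 17 with a median of 0.05. The gene was Cd163, the haemoglobin scavenger receptor, at 0.98, 0.64 and 0.30 CPM with vehicle and 2.14, 0.77 and 1.14 CPM with OA (1.096 ± 0.43), on 40 and 76 counts. The groups overlapped. Clec4f, a lectin found on Kupffer cells, stood at 77.9, 92.7 and 88.1 CPM against 113.9, 120 and 105.7 CPM, without overlap (0.39 ± 0.21).

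Lymphocyte genes differed by single mice. In the B and plasma cell list 4 of 15 were lower with OA at an unadjusted p under 0.05 (1.53% of all genes were), with a median of -0.81. The immunoglobulin heavy chain gene Ighm stood at 148.5, 18.9 and 14.7 CPM with vehicle and at 17.5, 8.77 and 7.95 CPM with OA, so that vehicle replicate 1 alone lay far above the rest. The light chain Igkc was also highest in vehicle replicate 1, at 130.1, 38.2 and 16.8 CPM against 25.7, 6.66 and 7.65 CPM. Without vehicle replicate 1 the list had 0 of 15 at that threshold and a median of -0.30. T and NK cell genes had 0 of 20 by edgeR and by DESeq2.

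**Figure D4:**
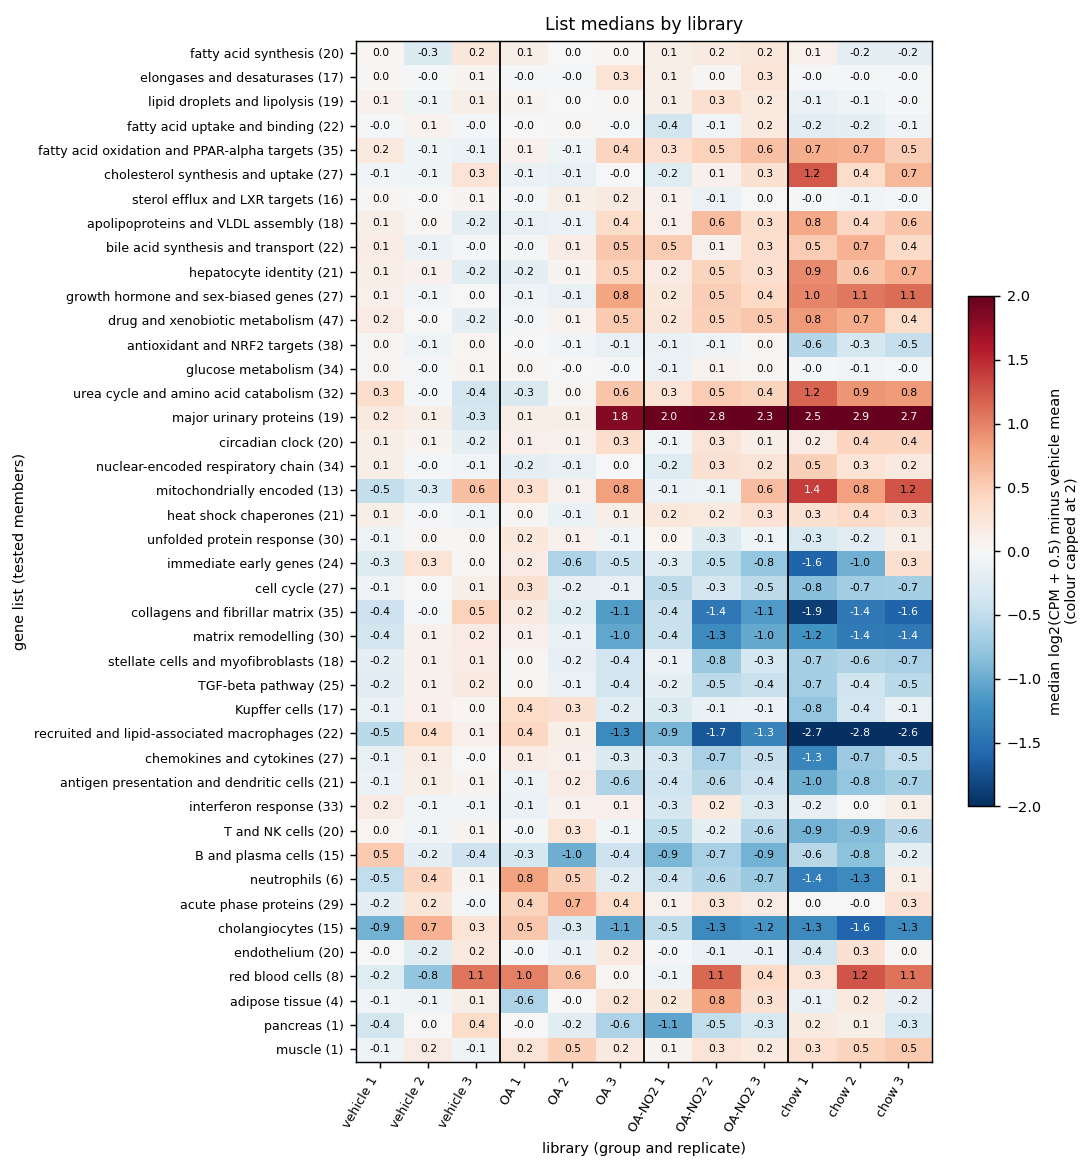
Median over the tested members of each gene list (y axis) of log2(CPM + 0.5) minus the vehicle mean, by library (x axis), with red above and blue below the vehicle mean. Acute phase medians are 0.44, 0.70 and 0.37 in the OA libraries, while OA replicate 3 is at 1.83 for major urinary proteins, beside 0.14 and 0.11 in the other OA libraries, and at -1.28 for recruited macrophages.

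The major urinary proteins (Mup) are pheromone carriers that mouse liver secretes under growth hormone control. Their sum and list median were highest in OA replicate 3 among the 6 libraries, though not every member was. Their genes lie side by side on chromosome 4 and are close copies. The first 120 coding bases of 3 of them, from the GENCODE M21 transcripts of GRCm38, are shown because reads from such stretches cannot be assigned to 1 gene; capitals mark differences from Mup7.
Mup7: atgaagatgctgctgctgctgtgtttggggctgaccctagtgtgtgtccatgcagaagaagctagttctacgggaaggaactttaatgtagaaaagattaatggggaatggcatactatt
Mup14: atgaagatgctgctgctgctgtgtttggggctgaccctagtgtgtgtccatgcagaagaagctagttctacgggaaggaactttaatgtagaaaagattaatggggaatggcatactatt
Mup17: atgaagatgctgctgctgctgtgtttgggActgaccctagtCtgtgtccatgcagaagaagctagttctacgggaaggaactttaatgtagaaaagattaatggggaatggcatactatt

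Mup14 did not differ from Mup7 in this window and Mup17 differed at 2 bases. In all, 12 other family members had at most 4 differences when compared base by base without gaps, a comparison that misses close copies whose reading frame is shifted by an insertion. The summed level of 22 Mup genes does not depend on how counted reads were split among them. Any shared reads that were left uncounted would be missing from it, and their treatment is not given. The sum was 3642, 4384 and 4392 CPM with vehicle and 4834, 4748 and 7793 CPM with OA. All 3 OA libraries lay above the vehicle libraries, 2 of them by little, and the OA-NO2 libraries were at 6447 to 9695 CPM and the chow libraries at 14760 to 20480 CPM. Single members stood further apart: Mup7 was at 23.8, 7.46 and 8.37 CPM with vehicle and at 13.9, 12.6 and 1101 CPM with OA. Mup20, an abundant member, went the other way, at 1600, 2187 and 3013 CPM with vehicle and 3075, 2277 and 1107 CPM with OA. Mup18 and Mup19 were highest in OA replicate 1, Mup22 in OA replicate 2 and Mup10 in vehicle replicate 1. Of the 19 tested members of the list 10 were higher at an unadjusted p under 0.05 (2.36% of all genes were), with a median of 1.1. Because close copies can share reads, the 10 cannot be counted as separate results. Without OA replicate 3 the count was 2, with a median of 0.14.

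Other genes set OA replicate 3 apart from OA replicates 1 and 2 by a wide gap, and are given as a description of that library. Among those higher in it, Hsd3b5, a steroid dehydrogenase, was at 6.14 CPM beside 0.10 and 0.05, the transporter Slco1a1 at 131 beside 26.4 and 17.5, and the cytochrome Cyp2c54 at 344.5 beside 64.1 and 68.6 CPM. Clec2h, Cfd, Cyp2f2, Etnppl, Sult2a8, Elovl3 and Dct made up the 10. Those lower in it included Spp1, osteopontin, at 31.0 beside 373 and 206 CPM, Ubd, a ubiquitin-like protein, at 7.83 beside 59.6 and 46.5, and Vsig4, a complement receptor of Kupffer cells, at 10.1 beside 61.9 and 48.6 CPM. Fam83a, Sdcbp2, Lcn2, Emp1, Pls1, Ly6d and Gpnmb were the others. The summed level of 15 cholangiocyte genes was 563, 357 and 184 CPM in OA replicates 1 to 3 and 221, 710 and 582 CPM with vehicle. Much of that sum was Spp1, which sits in the cholangiocyte and recruited macrophage lists. Spp1 was at 65.9, 459.9 and 414.1 CPM with vehicle. The cholangiocyte list median was 0.54, -0.27 and -1.06 with OA and -0.95, 0.69 and 0.28 with vehicle. The part of duct cells in these differences was not tested.

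**Figure D5:**
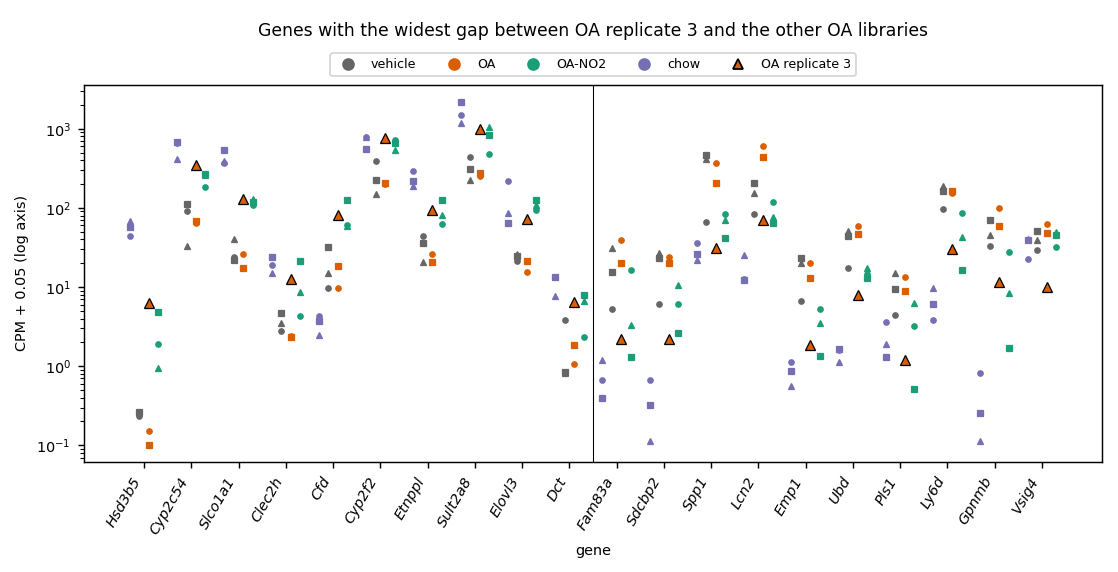
Level in CPM plus a small constant (y axis, log scale) of the 10 genes that were highest and the 10 that were lowest in OA replicate 3 relative to OA replicates 1 and 2 (x axis), with 1 symbol per mouse in all 4 groups. OA replicate 3 is outlined in black. For Slco1a1 it is at 131 CPM, beside 26.4 and 17.5 CPM in the other OA libraries. Slco1a1 is at 21.7 to 40.4 CPM with vehicle, 108 to 128 CPM with OA-NO2 and 371.5 to 541.3 CPM with chow.

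The infused compounds were compared directly at their shared rate of 5 mg/kg/day, as 1 pair: OA-NO2, which has the nitro group, against OA, which does not. By edgeR's quasi-likelihood model 1 gene of 14469 was called (0.00691%). That gene was Cd163, at 15.7, 22.8 and 16.9 CPM with OA-NO2 and 2.14, 0.77 and 1.14 CPM with OA, a log2 rise of 3.76 ± 0.34 (95% interval 3.02 to 4.50, adjusted p = 0.00085). DESeq2 called 51 of 12493 genes (0.408%), and at an unadjusted p under 0.05 edgeR counted 1740 (12%), of which 762 were higher (5.27%) and 978 lower (6.76%) with OA-NO2. Without OA replicate 3 edgeR called 130, 44 higher and 86 lower with OA-NO2. Steap4, which was high in OA replicates 1 and 2, was at 120 to 149.1 CPM with OA-NO2, a difference of -1.32 ± 0.23 (adjusted p = 0.243 by edgeR and 0.00012 by DESeq2). Cidea, a lipid droplet protein, was at 29.6 to 47.1 CPM with OA and 69.7 to 140.3 CPM with OA-NO2, a difference of 1.53 ± 0.27 (adjusted p = 0.243 by edgeR and 0.000467 by DESeq2), while OA differed from vehicle by -0.31 ± 0.27. For Scd1 the interval of the difference between the compounds ran from -0.40 to 0.51, for Plin2 from -0.22 to 0.50 and for Il1r1 from -0.72 to 0.41; these bound the difference and do not show that both act alike.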

How the data were processed

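Liver RNA of 12 mice was sequenced as paired reads, and the values the authors deposited are raw counts of reads per gene for 24983 genes, whole numbers without normalization. Per the submitters' processing notes, the tools were HTSeq, SAMtools 1.2, HISAT2 2.1.0 and Trimmomatic 0.35, and the build was GRCm38. No annotation, strand setting or treatment of multiply mapped reads is given in the sources used here. Gene names and coordinates came from GENCODE M21 (69 identifiers had no symbol), and promoters from RefSeq. Groups came from the labels, and replicate numbers follow the order of deposit.

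Genes passed filterByExpr of edgeR at its defaults (a count of 10 and a total of 15), scaled by trimmed mean of M values and tested in 1 quasi-likelihood model of all 12 libraries (edgeR 4.0.16, R 4.3.3), with Benjamini-Hochberg adjustment and calls at an adjusted p under 0.05. CPM values are counts scaled to a common total after trimmed-mean scaling. Standard errors come from the fitted weights and the moderated dispersion. DESeq2 1.42.0, other scalings and filters, a robust fit, a fit of only the compared groups and leaving out each library were alternatives. The test was checked on simulated data. Replicates differed by far more than sampling noise, and 0 columns were left unmapped.

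The comparison and the 42 lists (972 genes, 896 tested, 18 missing from the table) were chosen with earlier results of these data known, and no list was tested as a set. Named genes are the 12 largest called changes in each direction without overlap, at a mean CPM of 1 or more in a group. Where fewer were called, the places went to the lowest p. Predicted genes, pseudogenes, histones, Mup and ribosomal genes and the segments of immunoglobulins and T-cell receptors were passed over (3 higher and 1 lower). The rule adds the 3 lowest-p members of each list, 22 set genes (not all are reported here), and for OA replicate 3 the 10 genes in each direction with the largest gap to the nearer OA library at a mean of at least 5 CPM. Further list members that are named, such as Fgg, Saa2, Hpx and Mup14, were given after their values were seen.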

Additional observations from a re-analysis of the deposited data

How the results depend on the processing

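The count of 0 called genes between OA and vehicle held under every alternative run, including DESeq2 and leaving out each of the 6 libraries, with a lowest adjusted p of 0.226 (without vehicle replicate 2) to 1 (without OA replicate 3). Genes at an unadjusted p under 0.05 numbered 273 without OA replicate 3, 350 without vehicle replicate 2, 752 without OA replicate 1 and 760 with only the 6 libraries. Library size alone moved the median of all genes to -0.085 and the split to 112 higher and 336 lower, from 342 and 222. For OA-NO2 against OA, 10 genes were called with no filter, 51 by DESeq2 and 1 to 130 on leaving out 1 library. The difference in mitochondrial share ran from -2.38 to 1.48 on leaving out 1 library. Of 161 named genes, 0 passed the threshold under any alternative and 18 changed sign under at least 1. Plin2 became -0.066 with library size alone and -0.00745 with at least 1 CPM in 3 libraries, and Cyp7a1 became -0.0901 and -0.00423. On leaving out 1 library, log2 fold changes ran from -0.16 to 0.81 for Acsl1, -0.45 to 1.56 for Cfd, -0.17 to 0.12 for Cidec, -0.31 to 0.91 for Cyp4a14, -0.21 to 0.45 for Cyp7a1, -0.41 to 0.45 for Fasn, -0.49 to 0.64 for Gpnmb, -1.35 to 3.86 for Hsd3b5 and -0.48 to 0.11 for Hspa1b. They ran from -0.0189 to 5.57 for Mup7, -0.29 to 0.0345 for Nqo1, -0.0947 to 0.11 for Plin2, -0.37 to 0.0168 for Pparg, -0.0144 to 0.59 for Slc27a5, -0.41 to 1.46 for Slco1a1, -0.52 to 0.17 for Srebf1, -0.57 to 0.14 for Trem2 and -3.57 to 6.05 for mt-Co3. The cause of these shifts was not tested. No paired analysis was run, because each library is a different mouse and the labels pair no mice between groups. The interval beside a value gives the limit of its precision.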

Other observations

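Some gene groups not described above also differed between mice. Haemoglobin genes, of red blood cells left in the tissue, were uneven within groups: the summed level of 8 red blood cell genes was 188, 131 and 424 CPM with vehicle and 440, 316 and 280 CPM with OA. Hbb-bs, a beta-globin with a near-identical copy, stood at 106.3, 71.9 and 269.8 CPM against 286.7, 193.5 and 152.6 CPM. Immediate early genes, which respond within minutes to handling and stress, had 4 of 24 log2 fold changes above 0 and a median of -0.24, with 0 at an unadjusted p under 0.05 by edgeR and DESeq2. Without OA replicate 1 the median was -0.54, and without OA replicate 3 it was -0.22, with 7 above 0. Egr1, a member of this class, stood at 11.9, 31.7 and 24.7 CPM with vehicle and 24.8, 8.97 and 9.39 CPM with OA.

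Markers of pancreas and muscle were low. Of the pancreas list 1 of 14 genes was tested (Cela1, 10.3 to 17.2 CPM with vehicle and 8.55 to 13.3 CPM with OA), and of the muscle list 1 of 10 (Mylpf, below 1 CPM in all 6 libraries). Of the adipose list 4 of 11 genes were tested, and they summed to 1550, 1330 and 1920 CPM with vehicle and 911, 1200 and 2520 CPM with OA, highest in OA replicate 3. Nearly all of that sum was Car3, a carbonic anhydrase that liver also expresses, while the adipocyte hormone Adipoq had 51 counts over all 12 libraries, too few to be tested.

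Cxcl13, a B-cell attracting chemokine, stood at 3.54, 0.32 and 0.04 CPM with vehicle and 0.20, 0.10 and 0.06 CPM with OA, high only in vehicle replicate 1, the library that was also highest in Ighm and Igkc. The granzyme gene Gzmb was at 0.70, 0.53 and 0.85 CPM with vehicle and 0.87, 1.44 and 2.05 CPM with OA, without overlap and on 45 and 79 counts (edgeR adjusted p = 0.975).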
